A study of Mus musculus with 9 samples.

Results

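Inflammasomes are protein platforms that assemble in the cytosol when a sensor detects microbial products or cell damage. The sensor recruits the adaptor ASC, the adaptor gathers caspase-1, and the active protease matures interleukin-18 and interleukin-1 beta and cuts gasdermin D, which opens pores in the plasma membrane. Gut epithelial cells carry their own inflammasomes, which are known for interleukin-18 release, mucus secretion and the shedding of infected cells. The 7 genes described here were chosen by symbol, for their place in this pathway and with earlier results of these data known, from the 23955 gene symbols of the count table. They are the sensors Nlrp6, Aim2 and Nlrc4, the ASC gene Pycard, the proteases Casp1 and Casp4, and the cytokine gene Il18. All 7 symbols had 1 row each.

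The values came from RNA-seq of mouse gut organoids, epithelial cultures grown in a gel with Noggin, EGF, bFGF, R-spondin1 and B27. There were 3 groups of 3 samples, stated by the submitters to be biological replicates, and every group carried a mutated Apc gene. MIN organoids came from normal-appearing gut epithelium, Adenoma organoids from adenomatous polyps of APCmin/+ mice, and Sulindac organoids from such polyps and then treated with sulindac, a nonsteroidal anti-inflammatory drug that inhibits cyclooxygenases. The age of the mice, the number of mice behind the cultures, and the dose and time of sulindac for the organoids were not given in the sources used here. No group without an Apc mutation was analysed here, and the p-values below measure the spread between these samples.

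Of the 7 genes, 6 were lower in Adenoma than in MIN organoids and 1, Aim2, was higher, at a false discovery rate (FDR) of 1% at which 20.1% of 13744 tested genes were lower and 18.5% higher. Pycard and Casp1 fell from at least 2431 counts in each MIN sample to 6 counts or fewer in each Adenoma sample. Both passed the low-count filter through the MIN samples alone, so they had to differ if tested at all. With at least 10 counts required in every sample, neither could be tested, and 4 of the 7 genes were lower. Sulindac organoids differed from Adenoma organoids in 1 of the 5 genes that could be tested, Nlrp6, which was 14.3-fold higher after treatment yet at 16.0% of its mean MIN level. In that comparison 8.32% of 12962 tested genes were higher and 9.10% lower. The other sensors, Casp4 and Il18 did not pass the threshold between treated and untreated adenoma organoids, and Pycard and Casp1 stayed at or near 0 counts.

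The stretches of the genome just upstream of 5 of these genes are shown because the genes they belong to mark the patterns described below. Pycard and Casp1 were near 0 in both adenoma groups, Nlrp6 was higher with sulindac, Aim2 moved against the rest, and Casp4 lies next to Casp1. Each is the 250 bases before the annotated start, read 5′ to 3′ on the gene's own strand, taken from RefSeq on build GRCm38.p6. The submitters' processing notes name build mm9 for the counts, so these positions do not apply to the files. In the first 4, capitals mark CpG, the dinucleotide at which mammalian DNA is methylated.
Pycard, chr7:127993868-127994117, minus strand: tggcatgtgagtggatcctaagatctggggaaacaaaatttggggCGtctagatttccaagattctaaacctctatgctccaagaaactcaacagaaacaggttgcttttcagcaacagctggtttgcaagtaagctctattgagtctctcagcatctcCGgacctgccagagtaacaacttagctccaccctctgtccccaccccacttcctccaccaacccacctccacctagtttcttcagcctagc
Casp1, chr9:5298267-5298516, plus strand: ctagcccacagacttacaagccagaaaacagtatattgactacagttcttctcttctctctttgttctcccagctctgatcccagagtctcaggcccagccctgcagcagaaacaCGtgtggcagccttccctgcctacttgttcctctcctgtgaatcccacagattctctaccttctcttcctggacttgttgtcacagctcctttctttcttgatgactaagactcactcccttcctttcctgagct
Nlrp6, chr7:140920652-140920901, plus strand: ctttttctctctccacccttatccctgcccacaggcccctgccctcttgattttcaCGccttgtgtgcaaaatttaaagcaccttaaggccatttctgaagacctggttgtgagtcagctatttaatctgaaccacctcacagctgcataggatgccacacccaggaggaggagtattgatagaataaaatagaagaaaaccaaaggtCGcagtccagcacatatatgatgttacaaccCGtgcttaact
Aim2, chr1:173420354-173420603, plus strand: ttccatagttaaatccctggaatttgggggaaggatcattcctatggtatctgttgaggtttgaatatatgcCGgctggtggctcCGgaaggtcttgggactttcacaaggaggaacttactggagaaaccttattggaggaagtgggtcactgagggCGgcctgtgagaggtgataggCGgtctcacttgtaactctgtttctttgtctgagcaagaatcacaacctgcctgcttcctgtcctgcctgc
In the last, capitals mark matches to GGGNNTTCC, a form of the motif bound by NF-kB factors, and to TTTATG, a form of the motif bound by CDX factors, on either strand.
Casp4, chr9:5308599-5308848, plus strand: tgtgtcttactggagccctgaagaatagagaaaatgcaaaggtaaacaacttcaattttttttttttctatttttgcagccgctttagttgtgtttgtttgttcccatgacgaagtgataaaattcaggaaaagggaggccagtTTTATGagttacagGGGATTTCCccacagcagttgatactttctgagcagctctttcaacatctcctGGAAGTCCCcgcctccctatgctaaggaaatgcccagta

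All 7 genes had such a window, and each held fewer CpG than the median of 6 over all 32817 windows of the same length. There were 4 CpG in the window of Aim2 and 3 in those of Nlrp6 and Casp4, and 62.2% and 70.9% of windows held as many or more. There were 2 in those of Pycard and Nlrc4 and 1 in those of Casp1 and Il18, where the shares were 81.2% and 92.1%. Casp4 held 2 matches to GGGNNTTCC, where 4.97% of all windows held at least 1 match and 0.21% held 2 or more. It also held 1 match to TTTATG, found in 10.8% of windows. RefSeq lists another Casp4 start close to the first, and its window holds the same matches. No window of the 7 genes held GAAA followed after 2 free bases by GAAA, a form of the element bound by interferon regulatory factors and present in 2.97% of windows, or CTTTGAT, a form of the TCF element present in 3.21%, on either strand. A match in these letters is a description of sequence and shows no binding.

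Total counts ranged from 30881206 to 48412477 per sample, and a level of 3 counts, the least taken as detection here, corresponded to between 0.0647 and 0.0989 CPM, where CPM is the count scaled to the TMM-normalized library total. This floor covers counting error only. Epithelial markers were present in every sample, with a summed level of 3031 to 6719 CPM for 7 genes. Of 12 leukocyte markers, Emr1 and Itgax were at 0 counts in all 9 samples and Ptprc, the pan-leukocyte marker CD45, had 0 to 8. Summed over the 12, MIN had 5.11 to 6.65 CPM, Adenoma 8.42 to 17.0, most of it Cd68, and Sulindac 3.40 to 4.71. Single markers went the other way. Itgam, most of the MIN sum, had 148 to 159 counts in MIN, 4 to 13 in Adenoma and 0 to 5 in Sulindac. Lyz2 had 13 to 23 counts in MIN and at most 1 in the adenoma groups. Of 6 mesenchymal markers, Col1a2 and Col3a1 were at 0 counts throughout, and the sum was at most 4.19 CPM. The sums of markers of mature gut cells were far lower in both adenoma groups. Summed absorptive enterocyte markers, 8 genes, ranged over 3259 to 5141 CPM for MIN, 16.8 to 22.9 for Adenoma and 12.4 to 15.4 for Sulindac, and the 7 goblet, 5 Paneth and 4 stem cell markers also had their lowest summed levels in Sulindac. Single markers were higher in Adenoma than in MIN, such as the Paneth cell marker Mmp7, at 187.6 ± 5.49 CPM for MIN, 705.2 ± 118.0 for Adenoma, where it made up most of that sum, and 156.9 ± 32.0 for Sulindac. In bulk samples, fewer cells of a type and less RNA per cell cannot be told apart.

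**Figure D1:**
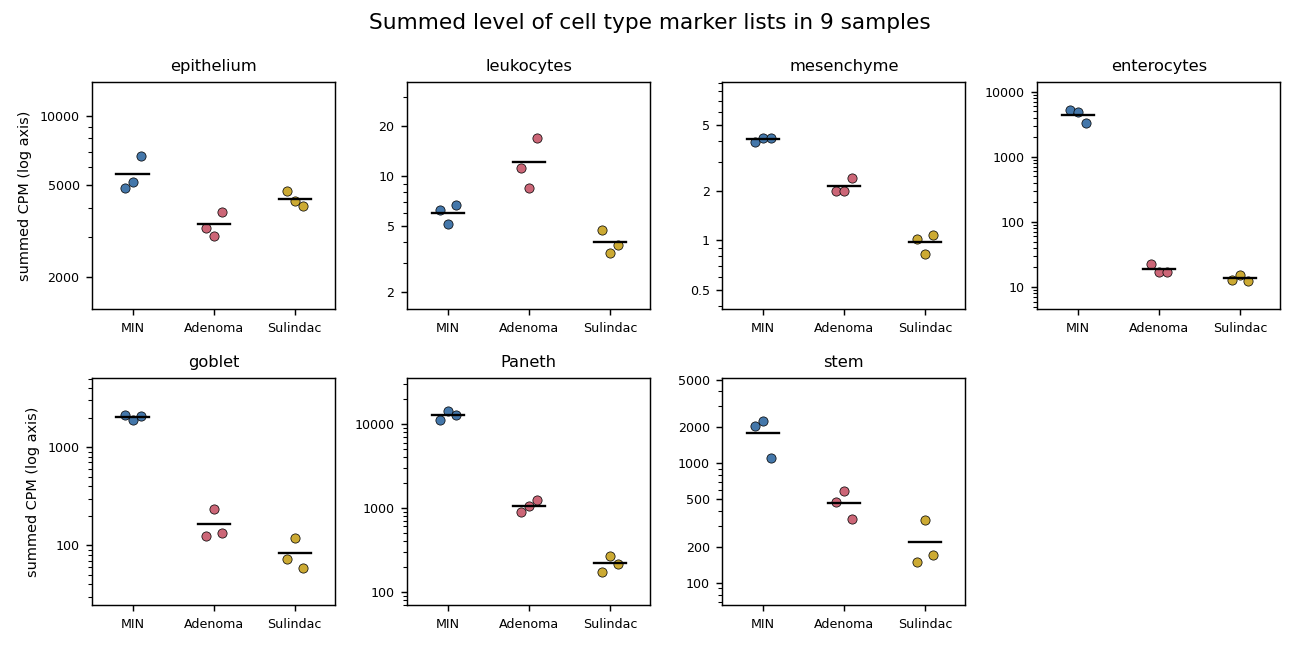
Summed CPM (log axis) of the 7 marker lists in each of the 9 samples, with a point for each sample and a line at the group mean. Enterocyte markers lie between 3259 and 5141 CPM in MIN and at 22.9 CPM or below in both adenoma groups, while leukocyte markers never exceed 17.0 CPM.

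Nlrp6, a sensor of the NOD-like family that is abundant in gut epithelium, was the member with the most counts in MIN organoids. Its counts were 14792, 15798 and 12512 in MIN replicates 1 to 3, 214, 94 and 106 in Adenoma, and 2063, 2227 and 1043 in Sulindac. The 3 groups did not overlap in CPM, and both Adenoma and Sulindac varied more than MIN, with the highest sample 2.28-fold and 2.25-fold above the lowest against 1.07-fold in MIN. Mean levels (SD, n = 3 each) were 346.5 ± 12.2 CPM for MIN, 3.90 ± 1.84 for Adenoma and 55.5 ± 21.8 for Sulindac. The quasi-likelihood test of edgeR, with p-values adjusted by Benjamini-Hochberg over every gene tested, gave a log2 fold change of -6.47 (SE 0.31, adjusted p = 7.63e-07) in Adenoma versus MIN. Under the same test it was 3.84 (SE 0.40, adjusted p = 0.000418) in Sulindac versus Adenoma and -2.64 (SE 0.28, adjusted p = 8.09e-05) in Sulindac versus MIN. The level in Sulindac replicate 3, 30.4 CPM, was under that of the other replicates, 68.0 and 68.3 CPM, and still above the highest Adenoma sample, 6.01 CPM. Leaving out any 1 sample kept the rise with sulindac past the threshold, at log2 fold changes of 3.62 to 4.30. The summed enterocyte, goblet, Paneth and stem cell markers were lower in Adenoma than in MIN, as Nlrp6 was, and lay wholly lower again in Sulindac, where leukocyte markers were also below Adenoma. The sum of the epithelial markers moved with Nlrp6 in both comparisons without overlap, at 4886 to 6719 CPM for MIN, 3031 to 3852 for Adenoma and 4083 to 4727 for Sulindac. Its single markers differed. Krt8, at 1993, 849.2 and 1516 CPM on average, Vil1, at 528.8, 195.4 and 319.6 CPM, Cdh1 and Krt20 moved as the sum did. Mean Epcam (1057, 735.1 and 553.8 CPM) and Cdx2 (259.4, 120.7 and 98.9 CPM) fell in both steps, and Krt18 (551.3, 922.6 and 1230 CPM) rose in both. Most of the enterocyte sum in the adenoma groups was Slc5a1 and Sis. These went from 13.6 to 8.93 CPM and from 2.55 to 0.686 CPM on average between Adenoma and Sulindac, and Lct was lower too. Alpi, another enterocyte marker, had 1 to 3 counts in the Adenoma samples and 5 to 9 in those of Sulindac. The means of Fabp1, Fabp2, Apoa1 and Apoa4 were also higher in Sulindac, at 2.86 CPM or below, with overlapping samples. For Apoa4 this rested on replicate 3, with 2, 2 and 39 counts in Sulindac and 9, 5 and 8 in Adenoma. Fabp1 had 6, 3 and 21 counts in Sulindac and 1, 1 and 7 in Adenoma. Mean Apoa1 was 0.161 CPM in Adenoma and 0.175 in Sulindac. The part of these markers in the difference was not tested.

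Aim2, a sensor of double-stranded DNA in the cytosol, was the only one of the 7 with more counts in the adenoma groups. Its counts were 450, 599 and 739 in MIN, 1419, 1090 and 1482 in Adenoma, and 1414, 1209 and 1704 in Sulindac. Every Adenoma and Sulindac sample was above every MIN sample, and the Adenoma and Sulindac ranges overlapped, at 30.5 to 43.0 CPM and 37.1 to 49.6 CPM. MIN replicate 3 was the highest of its group, and MIN as a whole spanned 1.82-fold. The log2 fold change was 1.37 (SE 0.24, adjusted p = 0.00125, edgeR's quasi-likelihood test) in Adenoma versus MIN, or 2.59-fold. In Sulindac versus MIN it was 1.61 (SE 0.23, adjusted p = 0.000394, same edgeR test). Between Sulindac and Adenoma the estimate was 0.25 (SE 0.16, adjusted p = 0.261, edgeR).

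Nlrc4, which is activated by NAIP proteins that have bound bacterial flagellin or secretion system parts, had the smallest decrease of the 6. Its counts were 1829, 2005 and 1551 in MIN, 689, 367 and 497 in Adenoma, and 848, 553 and 634 in Sulindac. All MIN samples lay above all others, within 41.9 to 44.6 CPM, and Adenoma (10.3 to 19.3 CPM) and Sulindac (17.0 to 27.9 CPM) overlapped. Replicate 1 was the highest sample of all 3 groups. The log2 fold changes were -1.56 (SE 0.21, adjusted p = 0.000291, edgeR) in Adenoma versus MIN, -1.03 (SE 0.18, adjusted p = 0.00133) in Sulindac versus MIN and 0.54 (SE 0.26, adjusted p = 0.148) in Sulindac versus Adenoma. The last did not pass the threshold.

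Pycard encodes ASC, the adaptor that links most inflammasome sensors to caspase-1. It had 5785, 7847 and 4740 counts in MIN, 2, 1 and 2 counts in Adenoma, and 1, 0 and 5 counts in Sulindac. In 5 of the 6 adenoma-derived samples it was at or under the floor of 3 counts, and Sulindac replicate 3 was just above it. The 18372 counts of the MIN samples stood against 5 in Adenoma and 6 in Sulindac. Scaled to library size, MIN was 3127 times Adenoma (95% exact counting interval 1340 to 9631) and 2395 times Sulindac (1100 to 6528). Such an interval pools the samples of a group and leaves out the spread between them. Of the 6 Sulindac counts, 5 were in replicate 3, and without that sample the fitted log2 fold change in Sulindac versus MIN went from -11.13 to -12.89. The fitted log2 fold changes, -11.50 and -11.13 (adjusted p = 1.65e-08 and 6.49e-08, edgeR), depend at such counts on the prior count of the fit. Of the 50-base stretches of Pycard transcripts, 11.7% also occur in other genes, nearly all in Gm45205, which overlaps it on the opposite strand. Whether the counting used strand was not given, so reads of the pair could not be told apart, a limit that bears on the MIN level more than on counts near 0.

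Casp1, the protease that ASC gathers, followed the same pattern. It had 2431, 3097 and 2670 counts in MIN, 5, 6 and 1 in Adenoma, and 4, 3 and 4 in Sulindac. All 6 adenoma-derived samples had at most 6 counts, and the groups Adenoma and Sulindac overlapped. The 8198 counts of MIN stood against 12 in Adenoma and 11 in Sulindac, ratios of 581.3 (95% exact counting interval 332.6 to 1126) and 583.0 (325.6 to 1168) after scaling to library size. None of the 50-base stretches of Casp1 occurs in another annotated gene. Pycard and Casp1 passed the low-count filter of the comparisons with MIN through the MIN samples alone, so they had to differ there if tested at all. Between Sulindac and Adenoma they were removed by that filter, and no fold is given because both groups were at or near the floor. Without the filter, the adjusted p of that comparison was 0.820 for Pycard and 0.973 for Casp1 in edgeR.

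**Figure D2:**
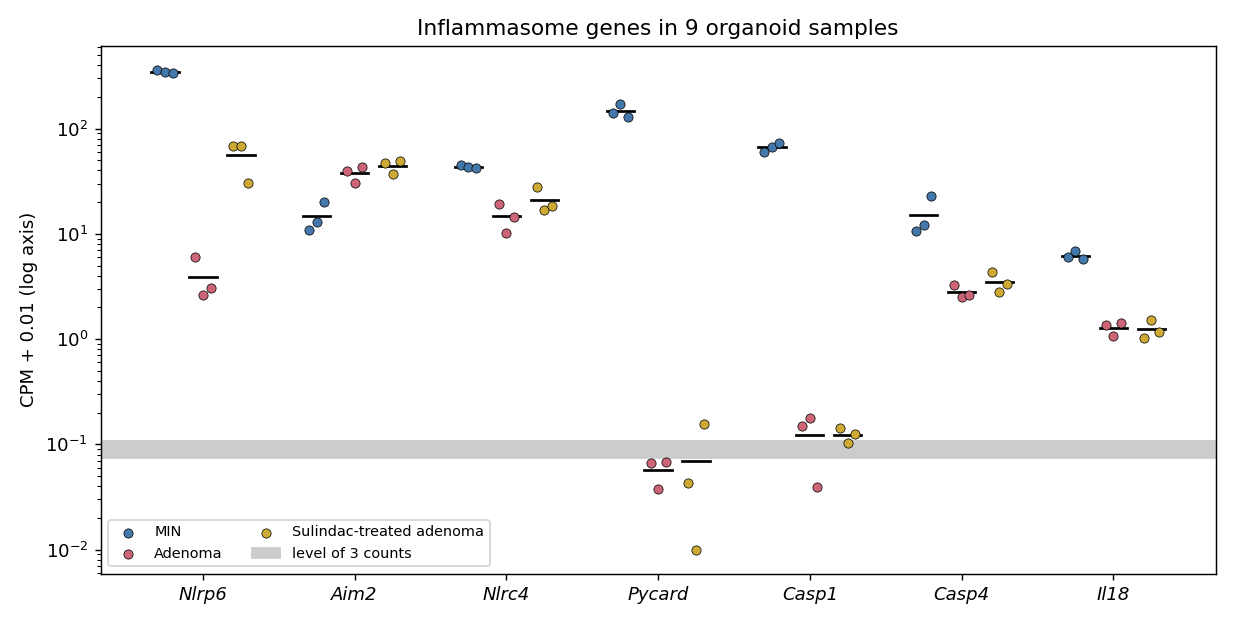
CPM + 0.01 (log axis) of the 7 genes in each of the 9 samples, with a point for each sample, a line at the group mean, and a grey band at the level of 3 counts. Pycard and Casp1 lie around the band in both adenoma groups, Nlrp6 in Sulindac lies between Adenoma and MIN, and Aim2 is lowest in MIN.

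Casp4, known as caspase-11 in mice, senses cytosolic lipopolysaccharide and starts the noncanonical pathway without ASC. Its counts were 435, 561 and 839 in MIN, 117, 89 and 91 in Adenoma, and 132, 92 and 115 in Sulindac. All MIN samples were above all others, though MIN itself was spread, with replicate 3 at 22.7 CPM and replicates 1 and 2 at 10.6 and 12.1 CPM. The log2 fold change was -2.43 (SE 0.31, adjusted p = 0.00025, edgeR) in Adenoma versus MIN and -2.10 (SE 0.32, adjusted p = 0.000619) in Sulindac versus MIN. Sulindac and Adenoma overlapped, with an estimate of 0.34 (SE 0.24, adjusted p = 0.315, edgeR). Aim2 and Casp4 thus had the same MIN replicate highest, and they moved in opposite directions in Adenoma.

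Il18, a cytokine that epithelial cells keep as an inactive precursor, had few counts throughout. There were 247, 315 and 211 in MIN, 48, 38 and 49 in Adenoma, and 31, 49 and 40 in Sulindac. The MIN samples, 5.70 to 6.79 CPM, did not overlap with either adenoma group, in which no sample had more than 49 counts. Mean levels were 20.7% of MIN in Adenoma and 19.9% in Sulindac. The log2 fold changes were -2.27 (SE 0.22, adjusted p = 4.28e-05, edgeR) in Adenoma versus MIN and -2.32 (SE 0.22, adjusted p = 2.81e-05) in Sulindac versus MIN. Sulindac versus Adenoma gave -0.042 (SE 0.26, adjusted p = 0.921, edgeR), an estimate whose sign changed when single samples were left out.

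No member overlapped between Adenoma and MIN, where 31.8% of genes lay wholly lower and 30.7% wholly higher. In Sulindac versus Adenoma, 5 members could be tested, and Nlrp6 was also the only one of the 7 whose samples did not overlap, where 22.5% of genes lay wholly higher and 26.2% wholly lower. Scaling by library size alone changed the split of all genes in that comparison from 1078 higher and 1179 lower to 603 higher and 1983 lower, and shifted the median over all genes from -0.013 to -0.18 on the log2 scale. The call of Nlrp6 held under that scaling too. In Sulindac versus MIN, 6 members were lower and 1 higher, beside 26.8% and 23.0% of 13551 genes, and none overlapped, where 35.8% of genes lay wholly lower and 33.2% wholly higher. This comparison uses the same samples as the others and adds no independent evidence. Pycard and Casp1 entered both comparisons with MIN through the MIN samples alone. The epithelial, enterocyte, goblet, Paneth and stem cell sums were also lower in Adenoma than in MIN, with no overlap. Single markers went the other way, Mmp7 of the Paneth list, Ascl2 of the stem cell list and Krt18 of the epithelial list. Most of the stem cell decrease was Olfm4, at 1224 CPM on average for MIN and 0.124 for Adenoma, and Smoc2 overlapped between the groups. The part of these markers in the differences of the 6 members was not tested.

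**Figure D3:**
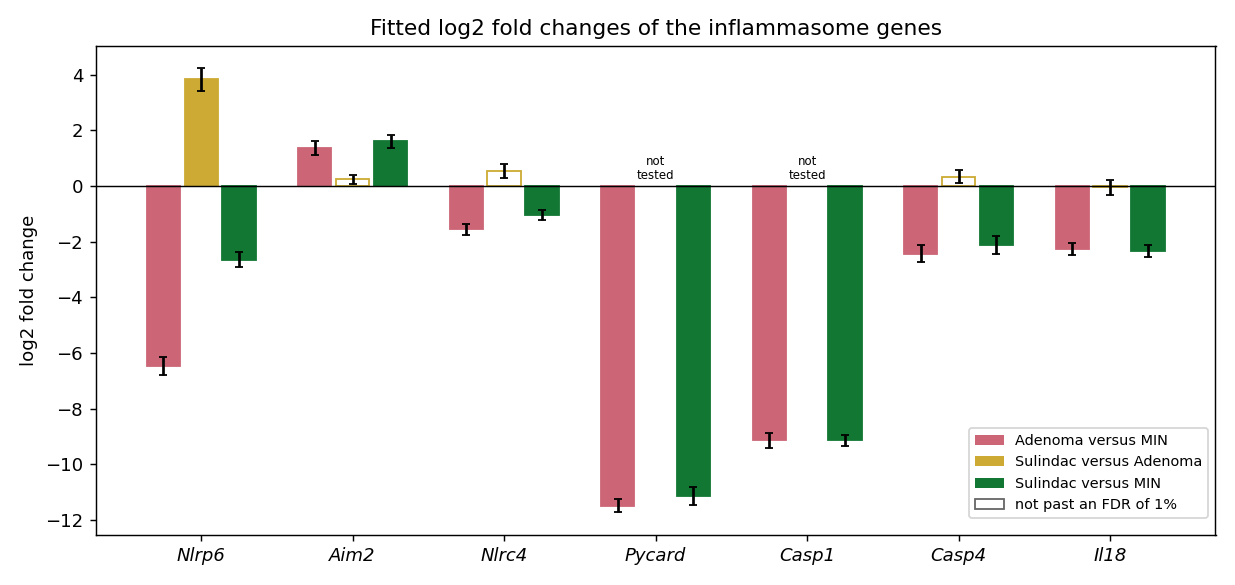
Fitted log2 fold change of the 7 genes in the 3 comparisons, with the standard error as error bars and open bars where the FDR of 1% was not passed. Nlrp6 is the only gene with a filled bar in Sulindac versus Adenoma, and Pycard and Casp1 were not tested there.

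The order of the genes by level per kilobase of the longest coding transcript differed between groups. In MIN, Nlrp6 had 78.1 ± 2.74 CPM per kilobase, followed by Casp1 (44.1 ± 4.35) and Pycard (38.4 ± 5.53), whose samples overlapped. The transcript length of Pycard is uncertain, since the annotated transcript of 3800 bases is longer than the RefSeq gene of 2495 bases, so its place in this order is uncertain, also against Nlrp6. Casp4 (10.5 ± 4.59) overlapped with Nlrc4 (9.14 ± 0.279), and Il18 (6.97 ± 0.633) with Aim2 (5.15 ± 1.67), the lowest. In Adenoma, Aim2 was first with 13.3 ± 2.28 CPM per kilobase and overlapped with no other gene. Nlrc4 (3.10 ± 0.961) and Casp4 (1.95 ± 0.295) overlapped there, as did Il18 (1.44 ± 0.213) and Nlrp6 (0.880 ± 0.414). In Sulindac, Aim2 (15.6 ± 2.31) and Nlrp6 (12.5 ± 4.92) overlapped at the top, and the genes below them, Nlrc4 (4.47 ± 1.26), Casp4 (2.44 ± 0.541) and Il18 (1.39 ± 0.279), did not overlap with their neighbours. Casp1 and Pycard came last in both adenoma groups.

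Casp1, Casp4 and Casp12 are neighbours on mouse chromosome 9, by the order of RefSeq genes. Casp1 and Casp4 were lower in Adenoma, while Casp12 had 14, 9 and 14 counts in MIN, 86, 125 and 70 in Adenoma and 38, 68 and 46 in Sulindac. Its log2 fold change was 3.12 (SE 0.37, adjusted p = 0.000151, edgeR) in Adenoma versus MIN, a comparison it entered through its counts in Adenoma, which favours a difference there. Of the neighbours of Pycard, Trim72 and Itgam were lower in Adenoma, at -3.27 and -4.02 (adjusted p = 0.00108 and 3.7e-05, edgeR). Both passed the low-count filter through the MIN samples alone, which favours a decrease there. Over the 2 nearest coding genes on each side of the 7 members, 24 other genes in all, 16 were tested in Adenoma versus MIN. Of these 16, 4 were higher and 4 lower, where 18.5% of all genes tested were higher and 20.1% lower. These neighbours were looked up after the values of the members were seen.

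Beyond the 7 genes, 48 further genes of the pathway had a row, and 30 were tested in Adenoma versus MIN. Of these, 5 were higher and 9 lower, where 18.5% of all genes tested were higher and 20.1% lower. The median log2 fold change was -0.30 beside -0.0077 for all genes tested. Nlrp1b, Nlrp9b and Il18r1 passed the low-count filter there through MIN alone, and Il1r1, Gsdma and Casp12 through Adenoma alone, which favours a difference. The same held in Sulindac versus MIN, with Sulindac in place of Adenoma. In Sulindac versus Adenoma 27 were tested, 2 were higher and 1 lower, beside 8.32% and 9.10% of all genes. The median was -0.042 beside -0.013. In Sulindac versus MIN 29 were tested, with 5 higher and 8 lower, beside 23.0% and 26.8% of all genes, and a median of -0.26 beside -0.031.

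Among 15 other sensors and their partners, 9 were tested in Adenoma versus MIN, with 1 higher and 4 lower, beside 18.5% and 20.1% of all genes tested. The median was -0.90 beside -0.0077 for all genes. The NAIP proteins, which hand their bacterial ligands to Nlrc4, did not move alike. Naip1 had 4140, 5568 and 4040 counts in MIN and only 62, 31 and 40 in Adenoma, a log2 fold change of -6.45 (SE 0.23, adjusted p = 1.61e-07, edgeR). Naip2 was lower by -1.33 (adjusted p = 0.000203), and Naip5 and Naip6 stood at -0.34 and -0.90 (adjusted p = 0.12 and 0.0136, edgeR), where the replicate block gave 0.00844 for Naip6. After sulindac, Naip2 rose from 39.2 ± 9.66 to 80.5 ± 6.78 CPM, a log2 fold change of 1.05 (adjusted p = 0.00285, edgeR). That call was lost without Sulindac replicate 1 or 3 (adjusted p = 0.0132 and 0.0141, edgeR) and, by a narrow margin, without Adenoma replicate 2. The MIN level of Naip2 was 98.9 ± 4.83 CPM, and all Sulindac samples lay below all MIN samples. Sulindac versus MIN gave -0.29 (adjusted p = 0.0211, edgeR), not past the threshold. Naip1 had 67, 41 and 87 counts in Sulindac (log2 fold change 0.69, adjusted p = 0.181, edgeR). The NAIP genes share sequence, from 19.1% of the 50-base stretches of Naip2 to 36.9% of those of Naip5, so counts may be split between them. In MIN, Nlrp1b had 231, 343 and 282 counts and Nlrp9b 243, 121 and 170, against at most 1 and 3 per Adenoma sample. Nlrp3, the sensor best known in macrophages, had 0 to 3 counts in all 9 samples. Naip1, Naip5, Naip6, Nlrp1b, Nlrp9b, Casp12, Il18r1 and Il1r1 were singled out after their values were seen.

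Of 8 pore-forming genes, 4 were tested in Adenoma versus MIN, 2 higher and 1 lower, beside 18.5% and 20.1% of all genes tested. The median over these 4, Gsdma among them, was 0.77 beside -0.0077 for all genes. Gsdmd, the pore former cut by caspase-1, was well expressed in all 3 groups. MIN had 78.1 ± 22.5 CPM, Adenoma 101.5 ± 19.6 and Sulindac 120.1 ± 12.1 (SD, n = 3 each), and neither the first step (log2 fold change 0.38, adjusted p = 0.174) nor the second (0.26, adjusted p = 0.203) passed in edgeR. Gsdma, a gasdermin best known from skin, had 16, 5 and 9 counts in MIN, 695, 935 and 1108 in Adenoma and 70, 112 and 61 in Sulindac. Its groups did not overlap, with log2 fold changes of 6.72 (SE 0.38, adjusted p = 1.86e-06, edgeR) in Adenoma versus MIN and -3.36 (SE 0.26, adjusted p = 0.000143) in Sulindac versus Adenoma. It entered the first through its counts in Adenoma, which favours a difference there, and both comparisons use the same Adenoma samples. Of its 50-base stretches 8.26% occur in other genes.

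Of 7 cytokine, receptor and binding protein genes, 4 were tested in Adenoma versus MIN, with 1 higher and 1 lower. Over all genes tested in that comparison, 18.5% were higher and 20.1% lower. Il1b, the other cytokine matured by caspase-1, had 0 counts in 8 samples and 1 count in Sulindac replicate 3, so any level lay under the floor of 3 counts. Il18bp, which encodes a secreted trap for interleukin-18, had 9 to 45 counts per sample and log2 fold changes of -0.16 (adjusted p = 0.739, edgeR) in Adenoma versus MIN and -0.58 (adjusted p = 0.337) in Sulindac versus Adenoma. Among 6 related caspases and adaptors, 5 were tested in Adenoma versus MIN, with Casp12 higher, Fadd lower and 3 not past the threshold. Of 12 regulators 8 were tested, none was higher and 2 were lower. One of them, Serpinb1a, an inhibitor of neutrophil-type proteases that also restrains inflammatory caspases, stood at 169.6 ± 26.6 CPM for MIN and was lower, at 15.5 ± 6.61, for Adenoma (log2 fold change -3.45, adjusted p = 2.7e-05, edgeR). It rose to 51.3 ± 22.9 CPM in Sulindac (1.75, adjusted p = 0.00892, edgeR), a call lost in 7 alternatives, at adjusted p of 0.0135 with library size alone, 0.0456 without the low-count filter, and 0.0136 to 0.0385 without Adenoma replicate 2 or 3 or any 1 Sulindac replicate.

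**Figure D4:**
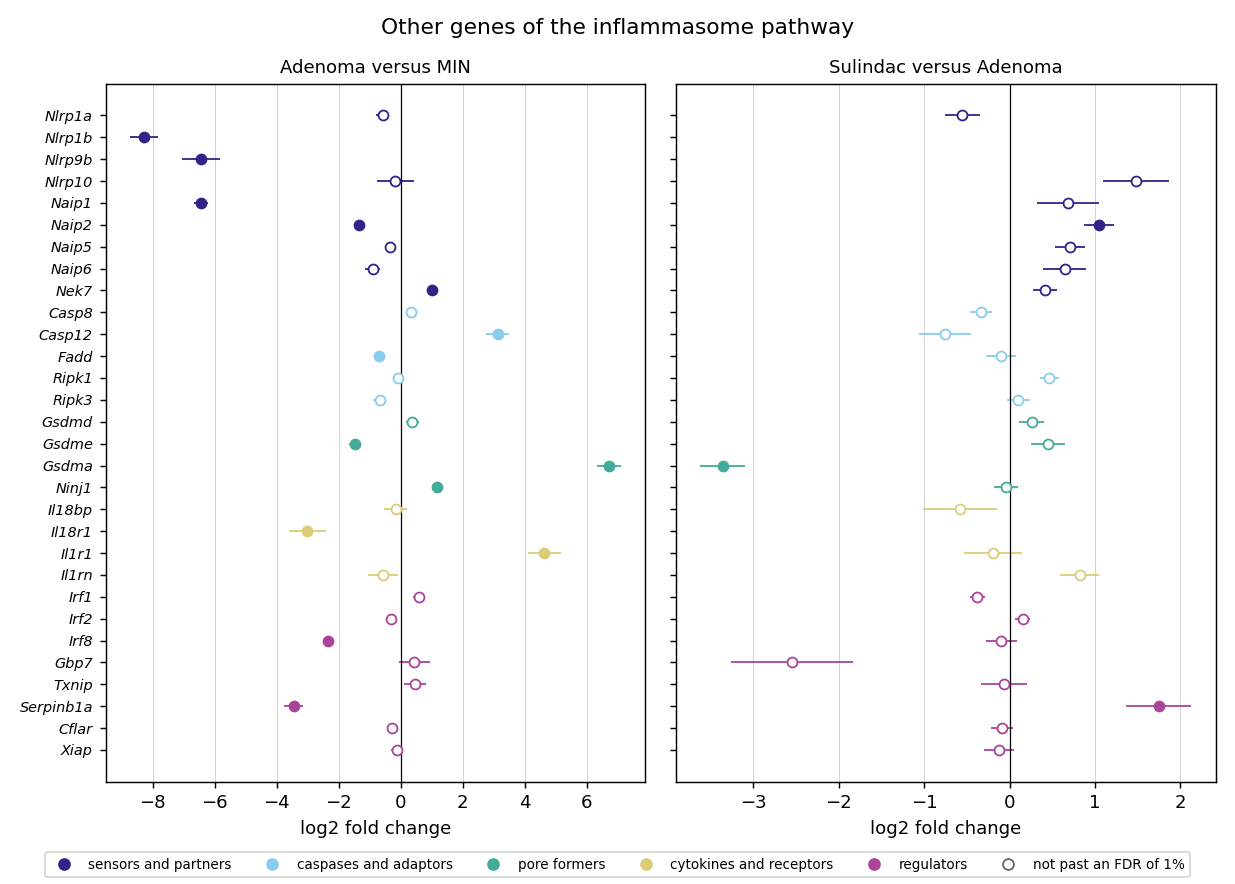
Fitted log2 fold changes with standard errors of the other pathway genes tested, Adenoma versus MIN on the left and Sulindac versus Adenoma on the right, coloured by list and open where the FDR of 1% was not passed. Naip2, Gsdma and Serpinb1a are the genes filled on both sides, each with opposite signs, and the panels share the Adenoma samples.

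The genes most like each member over the 9 samples, by Pearson's r of log2(CPM + 0.5) among 13892 genes, are given as a description, since the samples form 3 groups and r mostly follows the group levels. They were Dapp1 (0.992), Slc25a10 and Galnt7 (both 0.989) for Nlrp6, and 4930461G14Rik (0.989), Syt8 (0.988) and Ly6d (0.987) for Aim2. For Nlrc4 they were Ggt6 (0.987), Slc7a7 (0.984) and Alg9 (0.983), for Casp4 Fos (0.992), Slc37a1 (0.991) and BC021614 (0.990), and for Il18 Sdha (0.997), Suclg1 (0.996) and Surf4 (0.995). For Pycard and Casp1, which were high in MIN and near 0 elsewhere, r was over 0.999 for Rab3c, Fam83f and Epb4.1l3 and for Slco3a1, Tmem30b and Acpp.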

How the data were processed

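RNA of 9 mouse organoid samples was sequenced by the authors, who deposited 1 table of raw counts per gene symbol, without normalization. Per the labels, RNA was extracted with a QIAGEN miRNeasy kit and libraries followed Illumina protocols. The submitters' processing notes name Bowtie2 2.2.4, RSEM and build mm9, with no roles stated. The annotation and the handling of strand were not given in the sources used here. Groups and replicate numbers came from sample titles. MIN replicate 1 was given as 2 runs and their sum, which held in all 23955 rows, and the sum was used as 1 sample. In 27 rows the symbol had become a date, and none was named.

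In edgeR 4.0.16 under R 4.3.3, filterByExpr removed low counts, TMM set library sizes, and each pair of groups was fitted alone (robust glmQLFit, glmQLFTest) at a Benjamini-Hochberg FDR of 1% over all genes. The standard error is the absolute log2 fold change over the square root of F. CPM uses TMM library sizes over the 9 samples. The code was tested on simulated counts. Adenoma and MIN samples of the same number departed weakly alike from their group means (r across genes 0.113 to 0.193 in the 3 pairs). The numbers may therefore pair them, although no label states a shared origin. The main tests used the group alone, so their p-values leave out any pairing, and the replicate block below is the alternative that uses it. Sharing of 50-base stretches and transcript lengths came from GENCODE M21, and promoters and gene order from RefSeq.

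The 7 genes and all lists were chosen with earlier results of these data known. Of the other pathway genes, those past the threshold in both Adenoma versus MIN and Sulindac versus Adenoma were named, with Gsdmd, Il1b, Nlrp3 and Il18bp in any case. The likeness rule took the 3 genes with the highest r. As alternatives, each sample was left out in turn, the replicate number was added as a block, all 9 samples were fitted together, and TMM was replaced by RLE or by plain library size. DESeq2 1.42.0 (Wald test), an FDR of 5%, a 2-fold minimum, no filter on low counts and a minimum of 10 counts per sample were also tried. Those on the other pathway genes were added after the data were seen.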

Additional observations from a re-analysis of the deposited data

How the results depend on the processing

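Of 19 tested values of the 7 genes, 18 kept their direction and their side of the threshold in every alternative run. The exception was Il18 in Sulindac versus Adenoma, never past the threshold, whose log2 fold change of -0.042 lay between -0.19 and 0.065 with 1 sample left out and was above 0 without Adenoma replicate 1 (0.0058), Adenoma replicate 3 (0.029) and Sulindac replicate 1 (0.065). With at least 10 counts in every sample, Pycard and Casp1 could not be tested, which left 4 of the 7 genes lower in Adenoma and in Sulindac against MIN. For the other pathway genes, tried after the data were seen, the 5 higher in Adenoma versus MIN became 2 with at least 10 counts in every sample. The 2 higher in Sulindac versus Adenoma became 1 with library size alone, 4 without the low-count filter, 6 by DESeq2, 7 at an FDR of 5%, and 0 to 4 with 1 sample left out, while the 1 lower became 2 with library size alone, 2 by DESeq2 and 3 at an FDR of 5%. In Sulindac versus MIN, the 5 higher became 2 with at least 10 counts, 8 at an FDR of 5%, and 5 to 8 with 1 sample left out. Il18bp in Adenoma versus MIN lay between -0.42 and 0.052 with 1 sample left out, above 0 without MIN replicate 1 (0.052) and Adenoma replicate 1 (0.034). The cause of these changes was not tested, other than fewer genes or samples where the alternative itself removes them.

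The replicate block changed no call among the 7 genes, and the counts lower stayed at 6 in Adenoma and in Sulindac against MIN. It moved the other pathway genes higher in Sulindac versus Adenoma from 2 to 5. In that comparison and in Sulindac versus MIN same-numbered samples correlated unevenly (r from -0.077 to 0.26 and -0.029 to 0.41). There, 2 of the 3 treated samples correlated best with their own number, and whether these samples are paired is not known. Over all genes, the 1078 higher and 1179 lower in Sulindac versus Adenoma became 603 and 1983 with library size alone, 1778 and 1766 by DESeq2, 2034 and 2374 at an FDR of 5%, 365 and 703 with a 2-fold minimum, and 423 to 1403 and 386 to 1488 with 1 sample left out, lowest without Sulindac replicate 3. The 2-fold minimum also reduced Sulindac versus MIN from 3114 and 3625 to 1501 and 2104. At this depth Pycard, Casp1, Il1b and Nlrp3 could not be compared between the adenoma groups.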
